A study of Saccharomyces cerevisiae with 21 samples.

Results

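The 42 nuclear genes of Saccharomyces cerevisiae whose names begin with MRPL or MRPS, and which encode proteins of the mitochondrial ribosome, were followed at the transcript level in biofilms of 7 strains. They were chosen by name and identifier from the 7126 features counted in every library, without use of any measured value. Of these, 34 encode proteins of the large subunit and 8 proteins of the small subunit, and all 42 passed the filter on low counts that left 5786 genes in the tests. By the family names used for ribosomal proteins, 20 belong to families found in all domains of life, 8 are shared with bacteria and 14 are specific to mitochondria. The chosen names do not cover the whole ribosome, because other subunits carry names such as RSM, MRP, IMG and YML, and 38 of those were read beside the members.

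All strains were of the Sigma1278B background, a laboratory yeast that forms biofilms and filaments. The wild type (WT) was set against the dig1 mutant, whose biofilms the labels call hyperfilamentous, and against the ste12, spt8, rim101-531, ras2 and rtg3 mutants, which the labels call hypofilamentous, with 3 libraries for each strain. Each strain was grown in liquid YEPD for 16 h at 30 °C, set to OD600 20 and placed as 10 µl spots on YEPGal agar, and polyadenylated RNA was taken for sequencing after 24 h. The genotype labels give gene names and, for RIM101, 1 named allele, but not the kind of lesion. Dig1 is an inhibitor of the transcription factor Ste12, which acts at the end of the mating and filamentation kinase pathways. Spt8 belongs to the SAGA complex, which helps recruit the TATA-binding protein. Rim101 represses genes as part of the response to ambient pH. Ras2 is a small GTPase that activates adenylate cyclase, and Rtg3 carries the retrograde signal from mitochondria to nuclear genes.

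The mitochondrial ribosome translates the few proteins encoded in mitochondrial DNA, which are core subunits of the respiratory chain and the ATP synthase and the ribosomal protein Var1. Nearly all of its own proteins are encoded in the nucleus, made in the cytosol and imported, while its RNAs come from mitochondrial DNA. In yeast many of the nuclear messages are bound after the stop codon by Puf3, an RNA-binding protein of the Pumilio family that acts on their stability, translation and localisation near mitochondria. The genes of the respiratory chain, by contrast, are known targets of the Hap transcription complex, whose regulated subunit is Hap4.

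The letters TGTANATA, the core of the sequence that Puf3 recognises, were found on the sense strand within 200 bases after the stop codon in all 42 members. This search was made after the values had been seen. The same letters occurred in 36 of 38 other mitochondrial ribosomal genes, in 5 of 132 genes of cytosolic ribosomal proteins, in 4 of 36 genes of the respiratory chain and ATP synthase, and in 844 of 6002 nuclear protein-coding genes, which is 14.06%. The members held 52 matches, 10 members held more than 1, and the matches began between 8 and 165 bases after the stop codon, with a median of 56.5. The 9 matches below, 1 for each gene, are shown because they lie behind the member with the smallest p in each of the 6 mutants, behind MRPS5 and MRPS16, small-subunit members near the top in spt8 and ras2, and behind MRPL7, which passed no test. Each is 20 bases long, written 5′ to 3′ as DNA on the coding strand, from RefSeq's copy of build R64, with the match in capitals.
MRPL51 (YPR100W), chrXVI:730255-730274, plus strand: tatactTGTATATAtaattt
MRPS5 (YBR251W), chrII:722377-722396, plus strand: aataccTGTAAATAtctcaa
MRPL33 (YMR286W), chrXIII:842254-842273, plus strand: tatataTGTATATAgtatta
MRPS16 (YPL013C), chrXVI:528845-528864, minus strand: cagactTGTAAATAatacat
MRPL13 (YKR006C), chrXI:450363-450382, minus strand: atatccTGTACATAtatata
MRPL40 (YPL173W), chrXVI:224138-224157, plus strand: tcgaccTGTATATAtgaaag
MRPL24 (YMR193W), chrXIII:650885-650904, plus strand: tctgttTGTACATAtgtagg
MRPL25 (YGR076C), chrVII:637013-637032, minus strand: taatcaTGTAAATAattttg
MRPL7 (YDR237W), chrIV:937569-937588, plus strand: tcgtcaTGTAAATAtataaa
A match is a run of letters and not a measured binding site.

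The libraries held between 2388813 and 3987529 counts assigned to features, of which the members took between 5918 and 11502, or 0.206% to 0.359%. Levels are given as CPM, a library's counts rescaled to a common total, on library sizes scaled by the trimmed mean of M values (TMM). The targeted gene had 0 counts in the spt8, ras2 and rtg3 libraries and 1 count in the dig1 libraries, whereas STE12 kept 187 counts in the ste12 libraries against 534 in the WT, and RIM101 had 1354 counts in rim101-531 against 1647. Of the MATa markers, STE2 had 2364 counts in the WT, BAR1 987, STE6 754, MFA1 6 and MFA2 0. Of the MATalpha markers, SAG1 had 399, STE3 282, MF(ALPHA)2 28 and MF(ALPHA)1 9. The labels do not state whether the 3 libraries of a strain came from separate cultures. All p-values therefore cover the spread between these samples alone, and this spread may be technical. In bulk RNA, fewer cells with a transcript and less of it per cell cannot be told apart.

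The WT libraries differed among themselves in the level of the members, and every comparison against the WT shares them. Summed over the 42 members, the WT libraries stood at 2914.5, 3731 and 3244 CPM, and replicate 2 held the highest level of all 21 libraries for 29 of the 42 members. The median coefficient of variation of the members was 13.4% in the WT and 14.7% in rim101-531, against 8.63% to 10.6% in the other strains. Over all tested genes it was 10.9% in the WT and 11.8% in rim101-531, within the 8.8% to 15.1% of the other strains. The summed level was 3297 ± 411 CPM in the WT (SD, n = 3), 3065 ± 165 in ste12, 2691 ± 175 in rtg3, 2623 ± 133 in dig1, 2607 ± 248 in ras2, 2569 ± 330 in rim101-531 and 2238 ± 115 in spt8. The 3 spt8 libraries lay between 2114.6 and 2343 CPM, below every library of the other strains except rim101-531 replicate 2 at 2229. The small-subunit members kept a share of 23.1% to 24.9% of the summed level in all 7 strains.

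**Figure D1:**
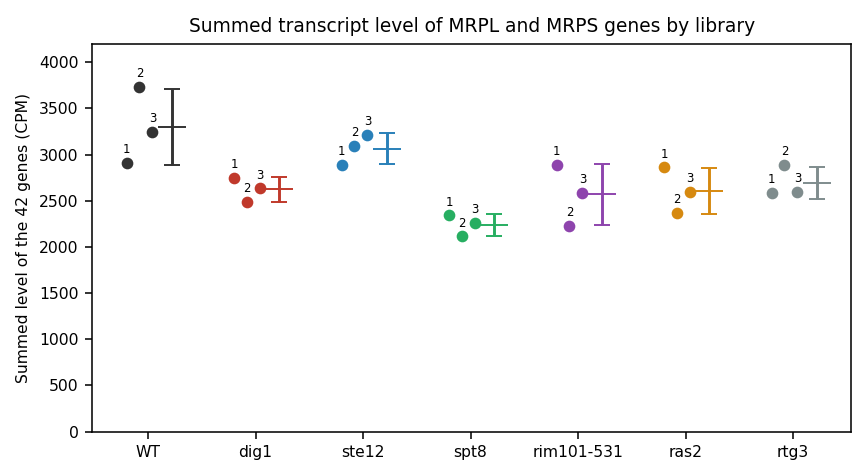
Summed level of the 42 MRPL and MRPS transcripts in each library, in CPM on TMM-scaled library sizes, with the replicate number above each point and the mean and SD of 3 libraries beside it. The WT libraries spread from 2914.5 to 3731 CPM, the spt8 libraries lie from 2114.6 to 2343, and the ste12 libraries reach into the WT range.

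In the wild-type biofilm the members formed a moderately abundant group. Per kilobase of coding length, their WT levels had a median of 122 CPM and ran from 26.8 to 263, beside a median of 46.2 for the 5512 tested genes with a coding length, 107 for the other mitochondrial ribosomal proteins, 1066 for the nuclear respiratory chain and ATP synthase, and 1352 for the cytosolic ribosomal proteins. The highest was MRPS18, the mitochondrial relative of the bacterial small-subunit protein S11, at 263 ± 38.3 CPM per kilobase (SD, n = 3). MRPL36, a relative of bacterial L31, followed at 231 ± 12.6 and overlapped with it in spread. MRPL23, a relative of L13, came next. MRPL4 at 58.0 ± 6.41 and MRPL27 at 56.2 ± 6.85 stood next to the bottom and did not differ beyond their spread. The lowest was MRPL38, the relative of L14, at 26.8 ± 6.10 CPM per kilobase, with 28, 43 and 30 counts in the 3 WT libraries, so its values carry more counting error than those of the other members. The median was 117 CPM per kilobase for the large subunit and 131 for the small subunit.

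The spt8 mutant, which lacks a SAGA subunit, had the most members changed. Against the WT, 32 of 42 members fell and 0 rose by edgeR's quasi-likelihood test at a Benjamini-Hochberg adjusted p under 0.05, where 14.4% of all tested genes fell, 11.1% rose and 25.5% changed in either direction. No member was higher at an unadjusted p under 0.05 either, and DESeq2 also gave 32 lower and 0 higher. The median log2 fold change of the members was -0.60, beside 0.02 over all tested genes. The fallen members were all 8 of the small subunit and 24 of the 34 of the large subunit. In 30 of the 32 the spt8 and WT libraries did not overlap. These members were already called on the same libraries, so this adds no separate support. The share without overlap over all tested genes was not computed.

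MRPL51, a mitochondria-specific large-subunit protein, stood at 39.4, 47.8 and 41.5 CPM in the WT and at 21.1, 20.7 and 20.6 in spt8. All 3 spt8 libraries lay at close to the same low level, and the log2 fold change was -1.04 ± 0.16 (SE; edgeR adjusted p = 5.85e-05). MRPL51 shares 323 bases with the open reading frame YPR099C on the other strand, and no source used here gives the strand setting of the counting, so reads of the pair may not be told apart. MRPS5, the small-subunit relative of bacterial S5, had 78.4, 104 and 82.7 CPM in the WT and 45.1, 53.6 and 52.8 in spt8. Every spt8 library was below every WT library for MRPS5, with a log2 fold change of -0.81 ± 0.14 (edgeR adjusted p = 0.000185). MRPL24, of the L28 family, moved from 56.5, 75.7 and 57.9 CPM to 35.0, 31.1 and 38.4, again without overlap, at -0.86 ± 0.15 (edgeR adjusted p = 0.000204). MRPL15 and MRPL16 fell by 0.77 and 0.72 on the log2 scale (edgeR adjusted p = 0.000224 for each). These 5 calls held in all 28 alternatives run for them.

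The 10 members that did not pass in spt8 included MRPL27, at 21.6, 27.6 and 25.1 CPM in the WT and 23.4, 26.4 and 27.9 in spt8, and MRPL7, at 70.0, 90.4 and 69.8 against 71.9, 69.7 and 73.7. For both genes the libraries of the strains overlapped, and the log2 fold changes were 0.06 ± 0.17 and -0.10 ± 0.14. MRPL38, the member with the lowest counts, did fall, at -0.71 ± 0.24 (edgeR adjusted p = 0.039). Without WT replicate 2 the count in spt8 was 23, with a median of -0.50. With library sizes left unscaled, 19 members fell in spt8. The median of all tested genes then moved to 0.26 and that of the members to -0.36. Here and in the other comparisons, counts with a library left out or with unscaled sizes are given without the share of all tested genes. The exception is the plot of shares that fell, which covers the fits without WT replicate 2. Elsewhere these counts, read alone, do not separate a change in the members from a change in calls over all genes.

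**Figure D2:**
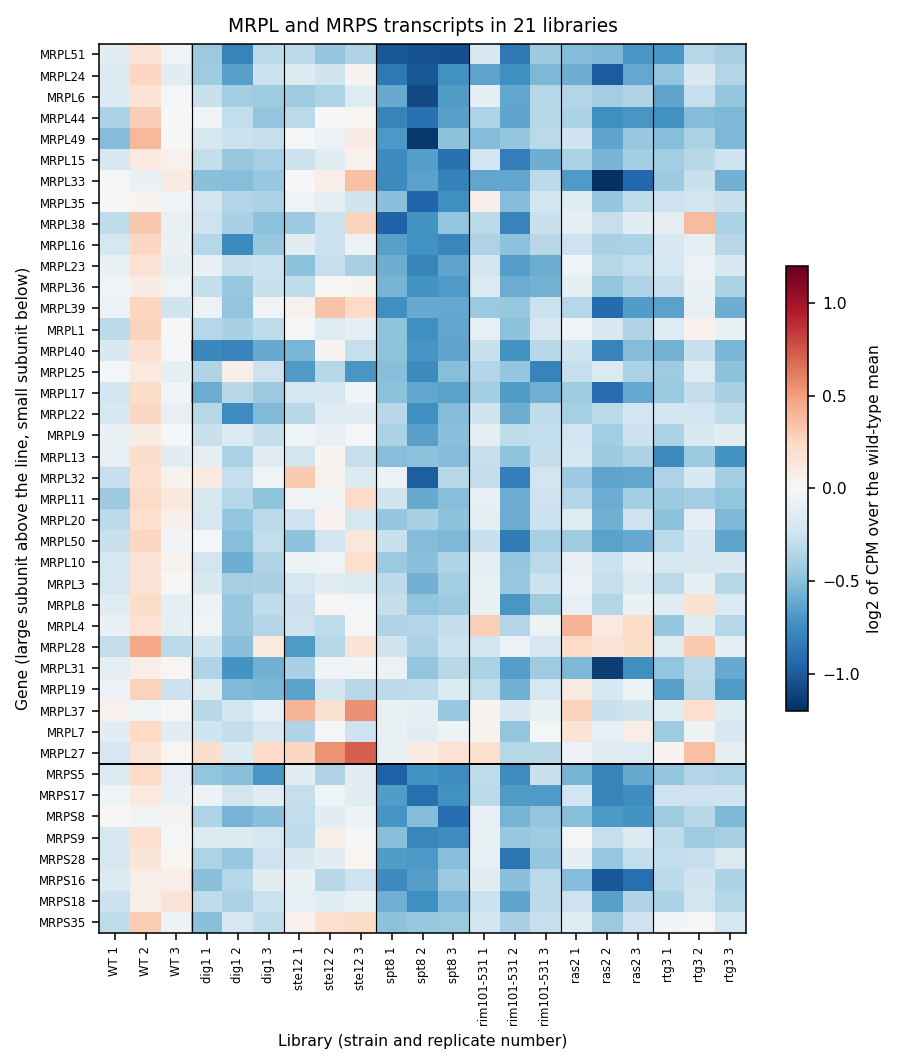
Level of each member in each of the 21 libraries as log2 of CPM over the WT mean, with the large subunit above the line, the small subunit below it, and genes ordered by their change in spt8 within each. The 3 spt8 columns are blue for nearly every gene, WT replicate 2 is red for most, and MRPL27 and MRPL37 are red in ste12.

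Loss of Ras2, which works upstream of protein kinase A, lowered 20 members and raised 0, where 14.9% of all tested genes fell, 10.3% rose and 25.3% changed in either direction (edgeR's quasi-likelihood test with Benjamini-Hochberg adjustment). No member was higher at an unadjusted p under 0.05, and DESeq2 gave 21 lower and 0 higher. The members' median log2 fold change was -0.33, beside -0.01 over all genes. The 20 comprised 15 of 34 large-subunit and 5 of 8 small-subunit members. The log2 fold changes ran from -0.94 for MRPL33 to 0.26 for MRPL4.

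MRPL33, the relative of bacterial L30 and the member with the shortest coding sequence after MRPL39, stood at 36.8, 35.4 and 40.1 CPM in the WT and at 23.4, 16.0 and 19.5 in ras2. The ras2 libraries lay well below the tight WT values, and the log2 fold change was -0.94 ± 0.14 (edgeR adjusted p = 6.49e-05). MRPS16, the small-subunit relative of bacterial S16, had 47.8, 56.2 and 56.5 CPM in the WT and 37.3, 26.4 and 28.6 in ras2, at -0.80 ± 0.14 (edgeR adjusted p = 0.000276). Replicate 1 of ras2 was the highest of its 3 libraries for both genes, yet remained below every WT library. MRPL31, a mitochondria-specific protein, fell by 0.79 ± 0.15, MRPS8 by 0.64 ± 0.12 and MRPL24 by 0.72 ± 0.14 on the log2 scale (edgeR adjusted p = 0.000647, 0.000653 and 0.000959). MRPL4, of the L29 family, was at 52.6, 62.7 and 51.6 CPM in the WT and 73.9, 60.4 and 65.5 in ras2, and its difference of 0.26 ± 0.14 did not pass (edgeR adjusted p = 0.216). Without WT replicate 2 the count was 9, without WT replicate 3 it was 11, and without ras2 replicates 2 and 3 in turn it was 9 and 11. With library sizes left unscaled it was 11.

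In the rtg3 mutant, which lacks a transcription factor of the retrograde pathway, 12 members fell and 0 rose, where 11.2% of all tested genes fell, 9.32% rose and 20.5% changed in either direction. No member was higher at an unadjusted p under 0.05, and DESeq2 gave 15 lower and 0 higher. The median of the members was -0.32, and 9 of the 12 belonged to the large subunit. MRPL13, a mitochondria-specific large-subunit protein, fell most. It stood at 92.9, 115 and 91.1 CPM in the WT and at 58.8, 73.3 and 60.8 in rtg3, with no overlap, at -0.64 ± 0.12 (edgeR adjusted p = 0.00094). The rtg3 mean for MRPL13 was the lowest of the 7 strains, but its libraries overlapped with those of spt8, at 69.5 to 71.1 CPM. This call held in all 28 alternatives.

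MRPL44, a mitochondria-specific protein whose gene is the only member with an intron in the annotation used, had 35.8, 57.2 and 46.8 CPM in the WT and 28.2, 32.4 and 32.1 in rtg3, at -0.59 ± 0.16 (edgeR adjusted p = 0.0129). MRPS8 fell by 0.43 ± 0.12 and MRPL6 by 0.45 ± 0.14 on the log2 scale (edgeR adjusted p = 0.0146 and 0.0268). MRPL19 fell by 0.55 ± 0.15 (edgeR adjusted p = 0.0164), but its coding sequence shares 113 bases with YNL184C, so its counts are uncertain. Without WT replicate 2 the count of fallen members was 2, without WT replicate 3 it was 3, and it was 2 without rtg3 replicate 1 or 3, 6 without dig1 replicate 3 or ras2 replicate 3, and 7 without rim101-531 replicate 3. With library sizes left unscaled, the median of all tested genes in rtg3 moved to 0.25 and that of the members to -0.07, and 1 member fell.

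In the hyperfilamentous dig1 mutant 11 members fell and 0 rose, where 7.69% of all tested genes fell, 8.02% rose and 15.7% changed in either direction. No member was higher at an unadjusted p under 0.05, and DESeq2 gave 11 lower and 0 higher. The median of the members was -0.32. MRPL40, the relative of bacterial L24, stood at 52.9, 67.9 and 59.0 CPM in the WT and at 35.1, 34.5 and 39.4 in dig1. These dig1 values were tight and below all WT values, and the log2 fold change was -0.72 ± 0.16 (edgeR adjusted p = 0.00369). MRPL40 was the dig1 call that held in all 28 alternatives among the 5 named here.

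MRPS5 was at 63.5, 62.1 and 54.6 CPM in dig1, below the 3 WT values given above, at -0.56 ± 0.13 (edgeR adjusted p = 0.00625). MRPL16 fell by 0.51 ± 0.12, MRPS8 by 0.48 ± 0.12 and MRPL22 by 0.53 ± 0.14 on the log2 scale (edgeR adjusted p = 0.00601, 0.00929 and 0.00991). In all 11 fallen members, already called on these libraries, the dig1 and WT libraries did not overlap. The share without overlap over all tested genes was not computed. The count of fallen members was 3 without WT replicate 2, 4 without WT replicate 3, 3 without dig1 replicate 2 and 4 without dig1 replicate 3. It was 19 with unscaled library sizes and 1 when the fit held the dig1 and WT libraries alone.

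The rim101-531 mutant had 6 fallen members and 0 raised, in a comparison in which 1.8% of all tested genes fell, 1.28% rose and 3.08% changed in either direction. At an unadjusted p under 0.05, 32 members were lower and 0 higher, and DESeq2 gave 6 lower and 0 higher. The share of all tested genes at an unadjusted p under 0.05 is not given, here or for the other comparisons and lists. Such counts therefore cannot be set against the shares at an adjusted p. All 42 log2 fold changes were below 0, with a median of -0.38. MRPL24 stood at 40.9, 38.1 and 43.6 CPM in rim101-531, below the WT values of 56.5, 75.7 and 57.9, at -0.63 ± 0.14 (edgeR adjusted p = 0.0184). MRPS17, the relative of bacterial S17, was at 72.6, 81.6 and 71.2 CPM in the WT and 60.0, 46.9 and 46.8 in the mutant, at -0.56 ± 0.14 (edgeR adjusted p = 0.0261). MRPL17, MRPL15 and MRPL23 fell by 0.55, 0.53 and 0.49 on the log2 scale (edgeR adjusted p = 0.0228, 0.0311 and 0.0339), and MRPL33 was the sixth. Replicate 1 of rim101-531 was the highest of its strain in the summed level, at 2888 CPM against 2229 and 2588. None of the 6 calls was made without WT replicate 2, without rim101-531 replicate 2 or 3, or with only the WT and rim101-531 libraries in the fit, while 1 was made without WT replicate 3 and 3 without ras2 replicate 3.

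In the ste12 mutant 1 member fell and 0 rose, where 5.2% of all tested genes fell, 4.77% rose and 9.97% changed in either direction. At an unadjusted p under 0.05, 5 members were lower and 2 higher. The median of the members was -0.13, beside -0.03 over all tested genes. The fallen member was MRPL25, a mitochondria-specific large-subunit protein, at 27.8, 30.2 and 25.8 CPM in the WT and 17.5, 22.1 and 17.2 in ste12, with no overlap, at -0.56 ± 0.16 (edgeR adjusted p = 0.0288). MRPL27 lay in the other direction, at 29.4, 36.1 and 40.8 CPM in ste12 above the WT range of 21.6 to 27.6. Its log2 fold change of 0.52 ± 0.17 did not pass in edgeR (adjusted p = 0.0623), while DESeq2 called it as its 1 higher member and called 0 lower. The count in ste12 was 0 without any 1 of the WT libraries 1, 2 and 3 or without ste12 replicate 3, 2 without dig1 replicate 2 or ras2 replicate 1, and 3 without rim101-531 replicate 1.

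**Figure D3:**
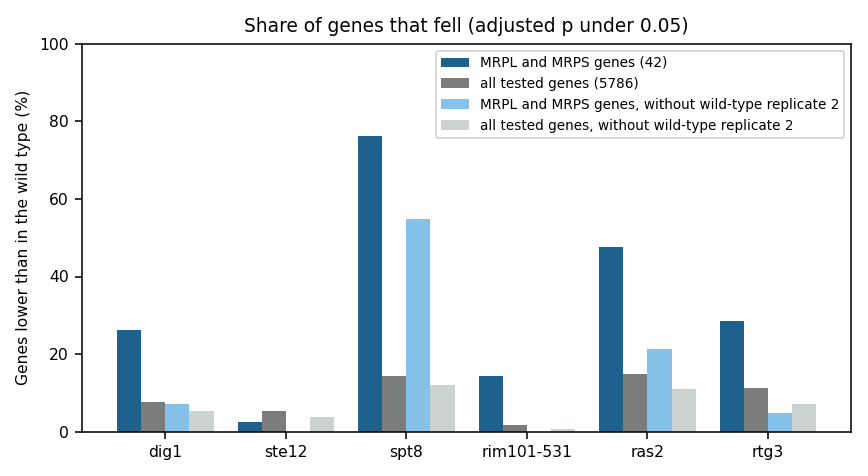
Share of the 42 members and of all 5786 tested genes that fell against the WT in each mutant, in percent, with every library (dark bars) and from the fits without WT replicate 2 (light bars). With every library the members' bar is above the all-gene bar in each mutant except ste12, and without WT replicate 2 it is 54.8% beside 11.9% in spt8, 21.4% beside 11.1% in ras2, 7.14% beside 5.41% in dig1, 4.76% beside 7.11% in rtg3, and 0% in rim101-531 and ste12.

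Both mutants of the filamentation pathway, the hyperfilamentous dig1 and the hypofilamentous ste12, could be compared without the WT. Here 6 members were lower in dig1 and 0 higher, where 10.1% of all tested genes were lower, 11.6% higher and 21.7% differed in either direction. At an unadjusted p under 0.05, 15 members were lower and 1 higher, and DESeq2 gave 6 lower and 0 higher. MRPL33 stood at 26.4, 26.3 and 27.3 CPM in dig1 and 37.2, 39.5 and 48.2 in ste12, at -0.64 ± 0.14 (edgeR adjusted p = 0.00208). MRPL37, a mitochondria-specific protein, stood at 26.1, 28.3 and 30.8 CPM in dig1 and 43.7, 37.4 and 48.2 in ste12, at -0.60 ± 0.16 (edgeR adjusted p = 0.00804). In both genes the dig1 libraries were close together and below every ste12 library.

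The small-subunit member MRPS35 was at 93.0, 114 and 106 CPM in dig1 and 136, 150.0 and 153 in ste12, at -0.49 ± 0.13 (edgeR adjusted p = 0.00906). MRPL10 and MRPL16 were lower by 0.42 and 0.36 on the log2 scale (edgeR adjusted p = 0.016 and 0.0431), and MRPL40 was the sixth. The MRPL16 call was lost in 15 of 28 alternatives, in which its adjusted p reached 0.188, and the MRPL10 call in 4 of 28. The median of the members was -0.22. The count was 2 without ste12 replicate 3 or with only the dig1 and ste12 libraries in the fit, and 3 without dig1 replicate 2 or 3. Replicate 3 of ste12 had the highest level among all libraries for 5 members.

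Against the mean of the 5 hypofilamentous mutants, 1 member differed in dig1, where 12.5% of all tested genes were higher, 8.69% lower and 21.2% differed in either direction. This was MRPS17, with 72.2, 64.5 and 68.4 CPM in dig1. It stood at 40.0 to 47.3 CPM in spt8, 46.8 to 60.0 in rim101-531, 43.2 to 63.9 in ras2, 63.0 to 63.7 in rtg3 and 62.1 to 72.7 in ste12, so that dig1 overlapped with ste12. The log2 difference was 0.32 ± 0.10 (edgeR adjusted p = 0.0287), and it did not pass without dig1 replicate 1 or 3. The members' median difference was 0.00. With unscaled library sizes the median of all genes moved to -0.16 and 6 members were lower.

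Because WT replicate 2 stood high and the WT entered most comparisons above, each mutant was also set against the mean of the 5 other mutants. This reference was chosen after the values were seen. In spt8, 19 members were lower and 0 higher, where 15.7% of all tested genes were lower, 15.3% higher and 31% differed in either direction, and the members' median was -0.29. No member was higher in spt8 at an unadjusted p under 0.05. Against this reference 79 of 131 cytosolic ribosomal proteins were also lower in spt8 and 0 higher, with a median of -0.49. Of the 36 respiratory chain and ATP synthase genes, 31 were lower and 1 higher, with a median of -0.57. Of the 38 other mitochondrial ribosomal proteins, 9 were lower and 0 higher, with a median of -0.19. MRPL51 at -0.56 ± 0.13 and MRPS9 at -0.46 ± 0.10 were below all 15 libraries of the other mutants (edgeR adjusted p = 0.00296 and 0.00219).

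In ste12, 22 members were higher than the mean of the 5 other mutants and 0 lower, where 14.1% of all tested genes were higher, 13.2% lower and 27.3% differed in either direction, and the members' median was 0.29. No member was lower in ste12 at an unadjusted p under 0.05. MRPL33 led, at 0.77 ± 0.11, followed by MRPL39, of the L33 family, at 0.67 ± 0.14 (edgeR adjusted p = 2.1e-05 and 0.0012). In 9 of the 22, already called on these libraries, all ste12 libraries lay above all 15 others. That share was not computed over all tested genes. Of ras2, 3 members were lower and 2 higher, where 15.6% of all tested genes were lower, 13.7% higher and 29.3% differed. The lower ones were MRPL33, MRPS16 and MRPL31, and the higher ones MRPL4 and MRPL19. In rtg3 MRPL13 was lower and MRPL23 higher, where 16.2% of all tested genes were lower, 19% higher and 35.3% differed. In rim101-531 edgeR called 0 members, where 1.71% of all tested genes were lower, 4.01% higher and 5.72% differed, and 0 had an unadjusted p under 0.05. DESeq2 was not run against this reference.

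The test for any difference among the 7 strains passed for 35 of 42 members, where 63.5% of all tested genes passed (edgeR's quasi-likelihood F test with Benjamini-Hochberg adjustment). With the WT left out, 27 of 42 passed among the 6 mutants, where 62.9% of all tested genes passed. MRPL33, MRPL24 and MRPS17 had the smallest p in both tests. The largest p over the 7 strains belonged to MRPL20, MRPL28 and MRPL7. MRPL7, the relative of bacterial L5, stood at 65.2, 62.8 and 67.0 CPM in dig1, 59.8, 75.6 and 64.5 in ste12, 79.0, 55.3 and 75.7 in rim101-531, 86.1, 71.8 and 81.0 in ras2, and 57.2, 73.3 and 67.3 in rtg3. The dig1 libraries lay below the WT range of 69.8 to 90.4, and those of the other 5 mutants overlapped with it. Its adjusted p was 0.326.

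**Figure D4:**
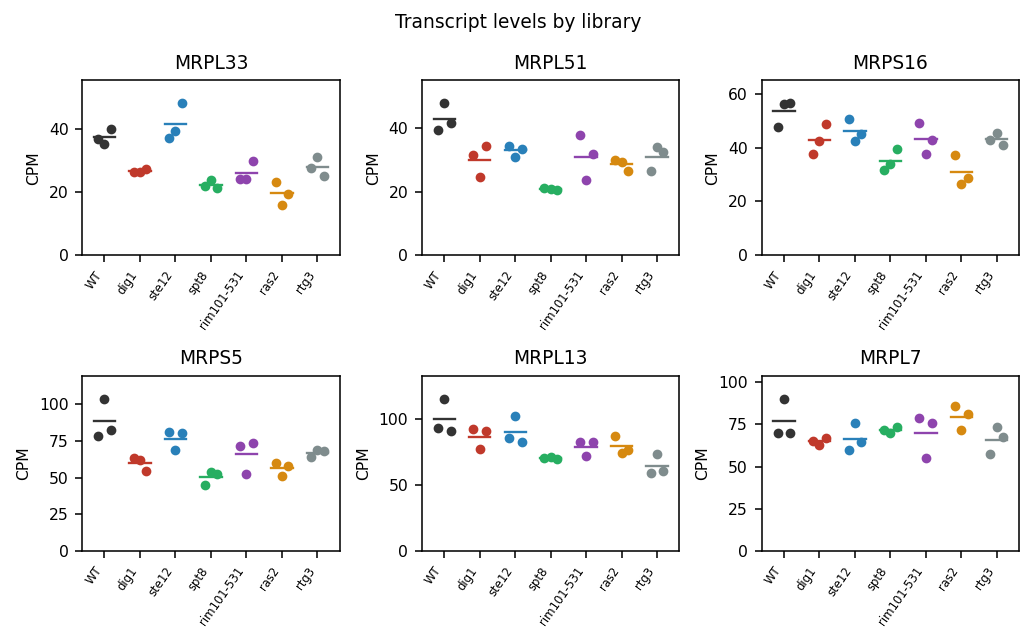
CPM of 6 members in each library, with 3 points for each strain and a bar at their mean. MRPL33 is lowest in ras2 and highest in ste12, MRPL51 is tight near 21 CPM in spt8, MRPL13 is lowest in rtg3, and MRPL7 shows overlapping strains.

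Counted over the 6 mutants, 2 members fell against the WT in 5 of them, MRPL17 and MRPL33, and neither passed in ste12. Another 5 members fell in 4 mutants, namely MRPL24, MRPL40, MRPL51, MRPS5 and MRPS8. A further 6 fell in 3, 11 in 2 and 12 in 1, and these counts share the WT libraries. The 6 members that fell in none were MRPL4, MRPL7, MRPL8, MRPL27, MRPL28 and MRPL37. The WT had the highest mean for 30 members, ste12 for 9 and ras2 for 3, and the lowest mean was in spt8 for 28 members, in ras2 for 7, in dig1 for 4, in rtg3 for 2 and in rim101-531 for 1. None of the counts in this paragraph was made over all tested genes, so they cannot be called particular to the members.

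Read by class, in spt8, 17 of 20 members of the universal families fell with a median of -0.61, 5 of 8 shared with bacteria with a median of -0.63, and 10 of 14 specific to mitochondria with a median of -0.49. In ras2 these counts were 9, 5 and 6, with medians of -0.31, -0.56 and -0.31, and in rtg3 they were 7, 0 and 5, with medians of -0.28, -0.33 and -0.34. Differences between classes were not tested. Coding length ran from 213 bases in MRPL39 to 1173 in MRPL3, with a median of 676.5. The Spearman correlation of coding length with the log2 fold change was 0.08 over the 42 members in spt8 and 0.32 over 5512 genes, 0.31 and 0.26 in ras2, 0.29 and 0.23 in rim101-531, and 0.20 and 0.26 in rtg3. It was -0.19 and 0.07 in dig1, and -0.08 in both sets in ste12. Genes of 1 fit share libraries and are not independent, so these are descriptions.

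Of the 38 other mitochondrial ribosomal proteins, 24 fell in spt8 with a median of -0.43, in ras2 12 with a median of -0.33, in rtg3 7 fell and 1 rose with a median of -0.27, and in dig1 6 fell and 1 rose with a median of -0.27. In rim101-531 1 fell, or 2.63% beside 1.8% of all tested genes. In ste12 edgeR called 0, where 6 had an unadjusted p under 0.05. RSM18, a small-subunit protein, fell in spt8, ras2, rim101-531 and dig1, from 84.7 ± 7.04 CPM in the WT to 48.3 ± 2.55, 50.6 ± 3.96, 57.9 ± 8.91 and 65.0 ± 6.54 (SD, n = 3). The gene that rose in dig1 was RSM25, at 0.75 ± 0.15 (edgeR adjusted p = 0.0012). Of 9 mitochondrial translation factors, 3 fell in dig1, or 33.3% beside 7.69% of all tested genes. In spt8 and ras2 1 of the 9 fell, or 11.1%, below the 14.4% and 14.9% of all tested genes. TUF1, the mitochondrial elongation factor Tu, fell in spt8 by 0.77 ± 0.15, and MEF2, which acts in ribosome recycling, fell in ras2 by 0.85 ± 0.16 and in dig1 by 0.73 ± 0.17 on the log2 scale (edgeR adjusted p = 0.000605, 0.000859 and 0.00396).

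Of the 13 mitochondrial aminoacyl-tRNA synthetases, which also all held a match to TGTANATA, 1 fell in spt8 (MSD1) and 1 in ste12 (ISM1), and 0 were called in the other mutants, where 1 to 4 were lower at an unadjusted p under 0.05. Each single call was 7.69% of the list, beside 14.4% of all tested genes lower in spt8 and 5.2% in ste12. The median of the synthetases was -0.26 in spt8 and 0.02 in ras2. Of 8 assembly and processing factors, YTA12 and AFG3, subunits of the protease that matures the large-subunit protein MRPL32, fell in dig1, and YTA12 and MTG1 in ras2. Each pair was 25% of the list, beside 7.69% of all tested genes lower in dig1 and 14.9% in ras2. Among 17 translational activators and the mitochondrial RNA polymerase, MTF1, AEP1 and AEP2 fell in spt8, AEP1 in dig1, and PET111 and PET122, activators of cytochrome oxidase messages, rose in ras2. These calls were near the shares over all tested genes. They made up 17.6% in spt8 and 5.88% in dig1, beside 14.4% and 7.69% of all lower. In ras2 they made up 11.8%, beside 10.3% of all higher. Of 15 import genes, 7 fell in rtg3, led by TOM40, the channel of the outer membrane, at -1.05 ± 0.12 (edgeR adjusted p = 2.80e-06), and 7 fell in spt8. These were 46.7% in each, beside 11.2% and 14.4% of all tested genes. In ras2 5 import genes fell, or 33.3% beside 14.9%, and in ste12 2 fell, or 13.3% beside 5.2%. In dig1 2 fell and 1 rose, or 20% called beside 15.7% in either direction. In rim101-531 0 were called, where 7 were lower at an unadjusted p under 0.05.

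The nuclear genes of the respiratory chain and ATP synthase, whose protein partners the mitochondrial ribosome makes, had lower medians than the members in spt8, ras2, rtg3, dig1 and ste12, and a higher one in rim101-531. These differences were not tested. Of 36, 33 fell in spt8 with a median of -1.05, 30 in ras2 with -0.70, 23 in rtg3 with -0.46, 17 in dig1 with -0.44, 8 in ste12 with -0.31 and 3 in rim101-531 with -0.22. Of 131 cytosolic ribosomal proteins tested, 23 fell and 1 rose in spt8 with a median of -0.41, and 30 fell in rtg3 with a median of -0.44. In spt8 18.3% were called in either direction, beside 25.5% of all tested genes. All but 1 of those called fell there, where 14.4% of all tested genes fell and 11.1% rose. The log2 fold change in spt8 was below 0 for 121 of the 131. In rtg3 22.9% fell, beside 11.2%. Their median was 0.34 in rim101-531, 0.30 in ste12, 0.16 in dig1 and 0.08 in ras2, where 0, 2, 6 and 1 of them rose. The risen ones were 1.53% in ste12 and 4.58% in dig1, below the 4.77% and 8.02% of all tested genes. In rim101-531, ste12, dig1 and ras2 the medians of the members and of the cytosolic ribosomal proteins had opposite signs. At an unadjusted p under 0.05, 31 cytosolic ones were higher in rim101-531, 24 in ste12 and 9 in dig1, with 0 lower. In ras2, 3 were higher and 2 lower. Of 12 genes of cytosolic ribosome biogenesis edgeR called 0 in any mutant against the WT, with 1 lower in rtg3 and 0 elsewhere at an unadjusted p under 0.05, and their medians ran from -0.47 in rtg3 to 0.35 in ste12.

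**Figure D5:**
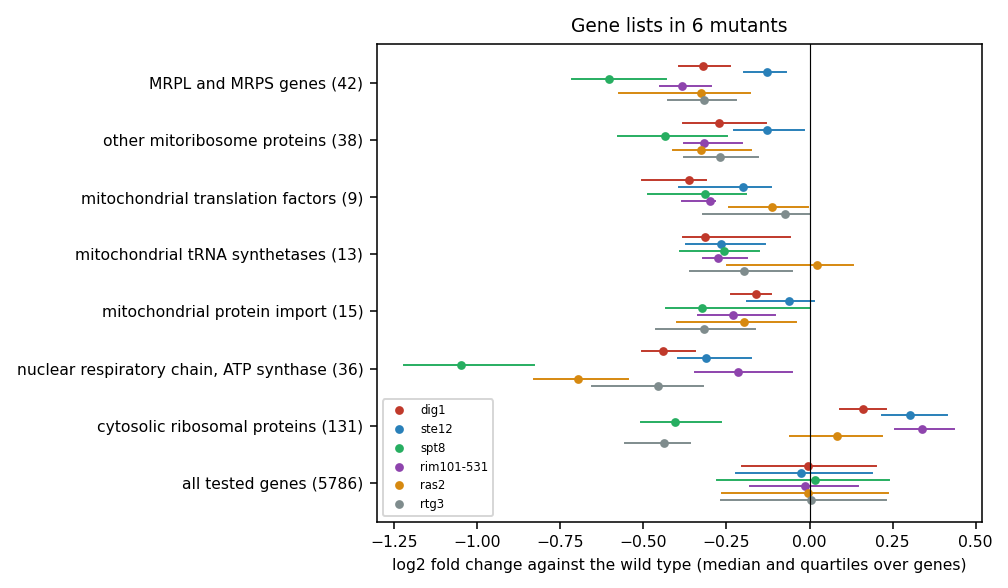
Median log2 fold change against the WT (point) with the quartiles over genes (line) for 7 lists and all tested genes in 6 mutants, with the number of genes in brackets. The members lie below 0 in each mutant, from -0.13 in ste12 to -0.60 in spt8, the respiratory chain reaches -1.05 in spt8, and the cytosolic ribosomal proteins are below 0 in spt8 and rtg3 and above it in the other 4.

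PUF3 itself was at 40.0 ± 5.18 CPM in the WT (SD, n = 3) and 25.4 ± 2.86 in spt8, 25.6 ± 2.15 in rtg3 and 28.7 ± 2.37 in ras2. It fell in these 3 mutants, by 0.66 ± 0.13, 0.64 ± 0.13 and 0.48 ± 0.13 on the log2 scale (edgeR adjusted p = 0.000913, 0.00126 and 0.00908). In rim101-531, dig1 and ste12 it was at 29.0, 33.9 and 32.2 CPM and did not pass. HAP4 was at 371 ± 7.57 CPM in the WT and 164 ± 11.3 in spt8, a log2 fold change of -1.17 ± 0.09 (edgeR adjusted p = 2.56e-08). It also fell in rtg3, dig1 and ras2, by 0.54, 0.49 and 0.44 on the log2 scale, and stood at 359 ± 34.9 in ste12 and 337 ± 13.5 in rim101-531, where it did not pass. HAP1, another of 10 regulators read, went the other way. It rose in dig1, ras2 and rtg3, by 0.51 ± 0.08, 0.42 ± 0.08 and 0.25 ± 0.08 on the log2 scale (edgeR adjusted p = 0.000149, 0.000719 and 0.0305). Of the 10, 1 rose and 2 fell in dig1, 1 and 3 in spt8, 1 and 5 in ras2, and 2 and 3 in rtg3. Called in either direction were 30%, 40%, 60% and 50%, beside 15.7%, 25.5%, 25.3% and 20.5% of all tested genes. The part of these genes in the levels of the members was not tested.

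The 776 tested genes other than the members that held a match to TGTANATA had a median log2 fold change of -0.09 in spt8, and 18.04% of them fell, beside 0.04 and 13.52% for the 4688 genes without a match. The 684 of them that stood in none of the lists read here had a median of -0.06, and 15.5% fell. In ras2 these values were -0.09 and 17.4% with a match and 0.02 and 14.31% without. In rtg3 they were -0.06 and 12.89%, beside 0.02 and 10.79%. For the 684 genes outside the lists they were -0.07 and 17.11% in ras2, and -0.03 and 11.99% in rtg3. In the other 3 mutants the shares with and without a match lay close together, at 8.12% and 7.7% in dig1, 5.28% and 5.38% in ste12, and 1.68% and 1.75% in rim101-531. The medians there were also lower with a match. They were -0.12 with and 0.02 without in dig1, -0.08 and -0.02 in ste12, and -0.10 and 0.002 in rim101-531. The members' medians of -0.60, -0.33 and -0.32 in spt8, ras2 and rtg3 lay further from 0 than those of the other genes with a match. No test of that difference was made, since the members share a function as well as the letters.

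In the 300 bases before the start codon, on both strands, GTCAC, the core of the R box bound by Rtg1 and Rtg3, was found in 7 of 42 members or 16.67%, beside 26.51% of all 6001 promoters of that length. TGAAACA, the pheromone response element of Ste12, was found in 9.52% of members and 7.2% of all, and CCAAT, the Hap site, in 30.95% and 41.81%. CATTCC and CATTCT, forms of the Tec1 site, were found in 2.38% and 16.67% of members, beside 10.16% and 17.05% of all. GCCAAG of Rim101 was found in 7.14% and 10.0%, AGGGG, the stress response element, in 11.9% and 22.18%, and AATTTT in 38.1% and 54.07%, the widest gap of the 8 strings searched. These are short strings, and none of the shares was tested.

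The mitochondrially encoded partners could not be followed in these libraries, which were made from polyadenylated RNA. VAR1, the ribosomal protein encoded in mitochondrial DNA, had 0 counts in 6 strains and 2 counts in rtg3, and none of the 8 mitochondrial messages passed the filter. The 15S RNA of the small subunit had between 3 and 16 counts over the 3 libraries of a strain, and the 21S RNA of the large subunit between 7 and 29. At these counts no comparison was made.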

How the data were processed

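RNA sequencing measured polyadenylated transcripts in 21 libraries of 7 strains, 3 for each. The values deposited by the authors are raw read counts per feature in 1 file for each library. Per the submitters' processing notes, TopHat2 2.0.19, HTSeq 0.6.1 and build R64 were used, with strand setting and annotation release not given in the sources used here. Summary records for reads assigned to no feature, equal to 40.1% to 47.8% of all records, entered neither library sizes nor tests. Replicate libraries of a strain differed beyond sampling noise (chi-square per degree of freedom 1.93 to 56.9), so all were kept as separate samples. Genes were filtered with edgeR's filterByExpr, which kept 5786, and scaled by TMM (factors 0.893 to 1.16). A quasi-likelihood model of edgeR 4.0.16 in R 4.3.3 was fitted to all 21 libraries with strain as the factor and 14 residual degrees of freedom, and p-values were adjusted by Benjamini-Hochberg over all 5786 genes with a threshold of 0.05. The script was tested on simulated data. Alternatives were DESeq2 1.42.0, its size factors in edgeR, unscaled library sizes, limma-voom (limma 3.58.1), no filter, replicate number as a block, only the groups compared, and each library left out.

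CPM values and levels per kilobase of RefSeq coding length are descriptions, and a group is given as its mean and SD. Counts carry counting error as well as the spread between libraries. Gene positions and sequences came from the RefSeq copy of R64 with pandas 2.3.3, and figures were drawn with matplotlib 3.10.9.

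The members were taken by name and identifier, and no measured value entered that rule. The family itself, the gene lists and the tests were nevertheless chosen with earlier results of these data known. In each comparison the text names up to 5 members with the smallest p in each direction among those called, 3 members at each end of the level per kilobase and of the test over all strains, members under 50 mean counts in the WT, and up to 3 called genes of each other list. Other named members were chosen after their values were seen.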

Additional observations from a re-analysis of the deposited data

How the results depend on the processing

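Of 32 named calls, 13 held in every alternative, 19 were lost in at least 1 and 0 reversed; the cause of the losses was not tested except where noted. With DESeq2's size factors in edgeR, 2 members were called in ste12. With unscaled library sizes, the counts were 19 in dig1, 2 in ste12, 19 in spt8, 11 in ras2, 1 in rtg3 and 6 in dig1 against the hypofilamentous mean, and this setting moved the median of all genes by over 0.1 in spt8, rtg3 and the hypofilamentous contrast. With only the groups compared in the fit, which leaves fewer samples, the counts were 1 in dig1, 0 in ste12, 0 in rim101-531 and 2 in dig1 against ste12. With the mean of the 5 other mutants as reference, chosen after seeing the data, they were 1 in dig1, 22 in ste12, 19 in spt8, 0 in rim101-531, 5 in ras2 and 2 in rtg3. DESeq2 called 1 member in ste12, another gene than edgeR's. Except for the mean of the 5 other mutants, these counts stand here without the share of all tested genes. So do those below with 1 library left out. Read alone, such a count does not separate a change in the members from a change in calls over all genes.

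Leaving out 1 library at a time gave 3 to 14 calls in dig1, 0 to 3 in ste12, 23 to 32 in spt8, 0 to 8 in rim101-531, 9 to 20 in ras2, 2 to 13 in rtg3, 2 to 7 in dig1 against ste12, 0 to 1 in dig1 against the hypofilamentous mean and 29 to 36 for any difference.

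With the replicate number as a block, 2 members were called in ste12, and the other counts stayed within 1.5 times. Deviations of libraries with the same number had a median correlation of 0.035 over 63 pairs, ranging from -0.418 to 0.684, so the numbers were not taken to pair the samples. As a hint from the data of some shared structure, 12 of 21 libraries correlated best with their own number, replicates 1 and 2 differed most in all 7 strains, and the block raised the share of all genes called, from 20.5% to 28% in rtg3 and from 63.5% to 71.2% for any difference. The summed counts limit the precision most for MRPL38.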
